A study of Mus musculus with 9 samples.

Results

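Heme is made from glycine and succinyl-CoA by a chain of enzymes that starts and ends in mitochondria and passes through the cytosol. ALAS1 catalyses the first and rate-limiting step, ALAD, UROS and UROD help build and trim the porphyrin ring, and CPOX, PPOX and FECH oxidise it and insert iron. Heme oxygenase 1, the product of Hmox1, opens the ring again into biliverdin, carbon monoxide and iron, and biliverdin reductases turn biliverdin into bilirubin. The liver is, after the erythroid marrow, the main site of heme synthesis, largely for cytochromes P450. Hmox1 is a textbook target of NRF2, the transcription factor that KEAP1 holds in check and that is released when p62 binds KEAP1.

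The 9 enzymes described here are 7 of synthesis (Alas1, Alad, Uros, Urod, Cpox, Ppox, Fech) and 2 of breakdown (Hmox1, Blvrb), taken by their symbols. Each has a row of its own among the 24411 genes of the count table, and all 9 were among the 11199 genes tested. Poly(A) RNA of 9 mouse livers at 3 months of age was sequenced, with 3 livers per genotype. Livers called cont. had Atg7 flanked by loxP sites on both alleles and no Cre. Atg7-KO livers had, beside these alleles, Cre under the albumin promoter, which is active in hepatocytes, and whole liver was measured. Livers of the third group, called S351A here, carried these alleles and Cre, and on both copies of p62 the S351A allele, which puts alanine in place of a serine and lowers the affinity of p62 for KEAP1. All 3 groups thus share the floxed Atg7. The genotype entries of S351A replicates 2 and 3 name S352A and S353A, and the titles were followed.

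In Atg7-KO livers, Alad, Urod and Ppox transcripts fell, with levels 2.89- to 3.86-fold lower than in cont., while Blvrb transcripts rose 2.17-fold. In S351A livers these 3 synthesis enzymes were 2.48- to 2.82-fold lower than in cont., and Blvrb was not called. Alas1, the rate-limiting enzyme, and Fech, the last one, were not called in either comparison. Hmox1 was the lowest of the 9 transcripts per length in cont. and was not called.

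Library totals were 1875325 to 15426575 counts in cont., 1945483 to 3675058 in Atg7-KO and 713841 to 792372 in S351A. Each S351A library was thus smaller than every other library, and depth and the p62 allele cannot be told apart. Values below are CPM, counts scaled to a common library size, on the TMM scale, which sets libraries level on the bulk of genes. A gene was called at a Benjamini-Hochberg adjusted p under 0.05 in edgeR's quasi-likelihood test and a fold change above 1.5. Xist and Y-linked genes gave 2 male and 1 female livers in cont., and 1 male and 2 female livers in each Cre group. Atg7 lay at 42.4 to 57.8 CPM in cont., 28.0 to 30.2 in Atg7-KO and 21.8 to 24.8 in S351A, called lower in both Cre groups, and these calls were lost when libraries were scaled by their totals alone. Titles number each liver as a mouse of its own. In bulk liver, fewer cells of a type and less RNA per cell cannot be told apart.

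The 250 bases before the RefSeq start site (GRCm38.p6) are shown for the 3 synthesis genes called lower in both Cre groups and for Blvrb, which was called higher in Atg7-KO. Capitals mark CACGTG, an E-box.
Alad, chr4:62519910-62520159, - strand: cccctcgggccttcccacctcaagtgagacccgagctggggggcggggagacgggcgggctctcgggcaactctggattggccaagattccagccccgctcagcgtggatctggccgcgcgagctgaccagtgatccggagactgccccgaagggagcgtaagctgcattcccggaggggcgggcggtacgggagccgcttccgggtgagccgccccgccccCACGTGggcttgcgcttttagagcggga
Urod, chr4:116994414-116994663, - strand: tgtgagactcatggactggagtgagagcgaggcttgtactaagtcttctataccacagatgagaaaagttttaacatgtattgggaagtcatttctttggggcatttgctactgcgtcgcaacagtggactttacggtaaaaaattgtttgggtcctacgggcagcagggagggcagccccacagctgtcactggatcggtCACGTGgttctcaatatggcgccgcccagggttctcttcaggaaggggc
Ppox, chr1:171281187-171281436, - strand: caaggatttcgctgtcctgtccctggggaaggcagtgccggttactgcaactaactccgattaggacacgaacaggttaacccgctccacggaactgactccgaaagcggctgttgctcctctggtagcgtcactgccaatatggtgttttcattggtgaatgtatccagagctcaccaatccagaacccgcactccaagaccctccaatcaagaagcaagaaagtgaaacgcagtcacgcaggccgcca
Blvrb, chr7:27447728-27447977, + strand: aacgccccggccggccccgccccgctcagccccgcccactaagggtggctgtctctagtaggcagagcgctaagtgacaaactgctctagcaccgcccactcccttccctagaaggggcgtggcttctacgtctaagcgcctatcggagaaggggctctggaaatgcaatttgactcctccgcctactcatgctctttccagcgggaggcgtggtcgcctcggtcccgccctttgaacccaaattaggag

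These windows were available for 7 of the 9 genes, in 11 windows. Hmox1 and Fech had none, so they were not searched. The core of the antioxidant response element bound by NRF2, searched as TGACNNNGC on both strands, was in none of the 11 windows, and it is in 10.2% of all 32817 such windows. CACGTG, which reads the same on both strands and was looked for after the values and sequences had been seen, was in windows of 3 of the 7 genes. It starts 28 bases before the start site of the Alad window shown, 105 bases before a second Alad start site, 49 bases before that of Urod and 250 bases before that of Uros. It is in 4 of the 11 windows and in 6.02% of all windows, and over all genes 6.86% have it in a window. The windows of Ppox, Cpox, Alas1 and Blvrb hold neither motif. A match is a description of the letters only, and a window without one says nothing of sites elsewhere.

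The comparison of Atg7-KO with cont. asked what the loss of hepatocyte autophagy does to these transcripts. Of the 7 synthesis enzymes, 4 were called lower, against 18.1% of all genes tested, and none higher. Of the 2 breakdown enzymes, Blvrb was called higher, against 19.9% of all genes. The median log2 fold change of the 7 synthesis enzymes was -0.93, and that of all genes -0.03. Scaled by library totals alone, 2 members were called higher (Blvrb and Hmox1) and 3 lower (Alad, Urod and Ppox), where 38.3% of all genes were higher and 7.15% lower. In 4 of the 9 genes every Atg7-KO library was below every cont. library, as in 24.9% of all genes, and in 1 every library was above, as in 26.7%.

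Alad (- strand of chromosome 4 from 62509169 to 62519918 in mm10), which joins aminolevulinic acid into the first pyrrole, was at 282, 329 and 326 CPM in cont., at 75.4, 87.2 and 80.1 in Atg7-KO, and at 90.8, 108 and 138 in S351A. No Cre library came near a cont. library. The log2 fold change of Atg7-KO against cont. was -1.95 (SE 0.21, adjusted p 3.56e-05), which is 3.86-fold lower, and that of S351A against cont. was -1.48 (SE 0.21, adjusted p 4.82e-04).

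Urod (- strand of chromosome 4 from 116989965 to 116994413 in mm10), which trims the side chains of uroporphyrinogen, was at 70.6, 116 and 85.9 CPM in cont., at 26.9, 32.7 and 35.2 in Atg7-KO, and at 32.2, 36.0 and 42.0 in S351A. All 6 Cre libraries lay below the lowest cont. library. The log2 fold change was -1.53 (SE 0.22, adjusted p 2.31e-04) in Atg7-KO and -1.31 (SE 0.24, adjusted p 0.0018) in S351A.

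Ppox (- strand of chromosome 1 from 171275990 to 171281186 in mm10), which oxidises protoporphyrinogen in mitochondria, was at 43.9, 58.8 and 47.6 CPM in cont., at 18.1, 13.3 and 12.8 in Atg7-KO, and at 8.04, 19.9 and 25.9 in S351A. The S351A values rest on 7, 16 and 21 counts. The log2 fold change was -1.75 (SE 0.29, adjusted p 5.56e-04) in Atg7-KO and -1.49 (SE 0.33, adjusted p 0.0052) in S351A. Ppox shares 791 exonic bases with B4galt3 on the opposite strand, and the strand setting of the counting is not given in the sources used here. B4galt3 itself was at 14.6 to 16.7 CPM in cont., 14.0 to 18.1 in Atg7-KO and 9.19 to 19.9 in S351A, with log2 fold changes of 0.07 and -0.16 against cont.

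**Figure D1:**
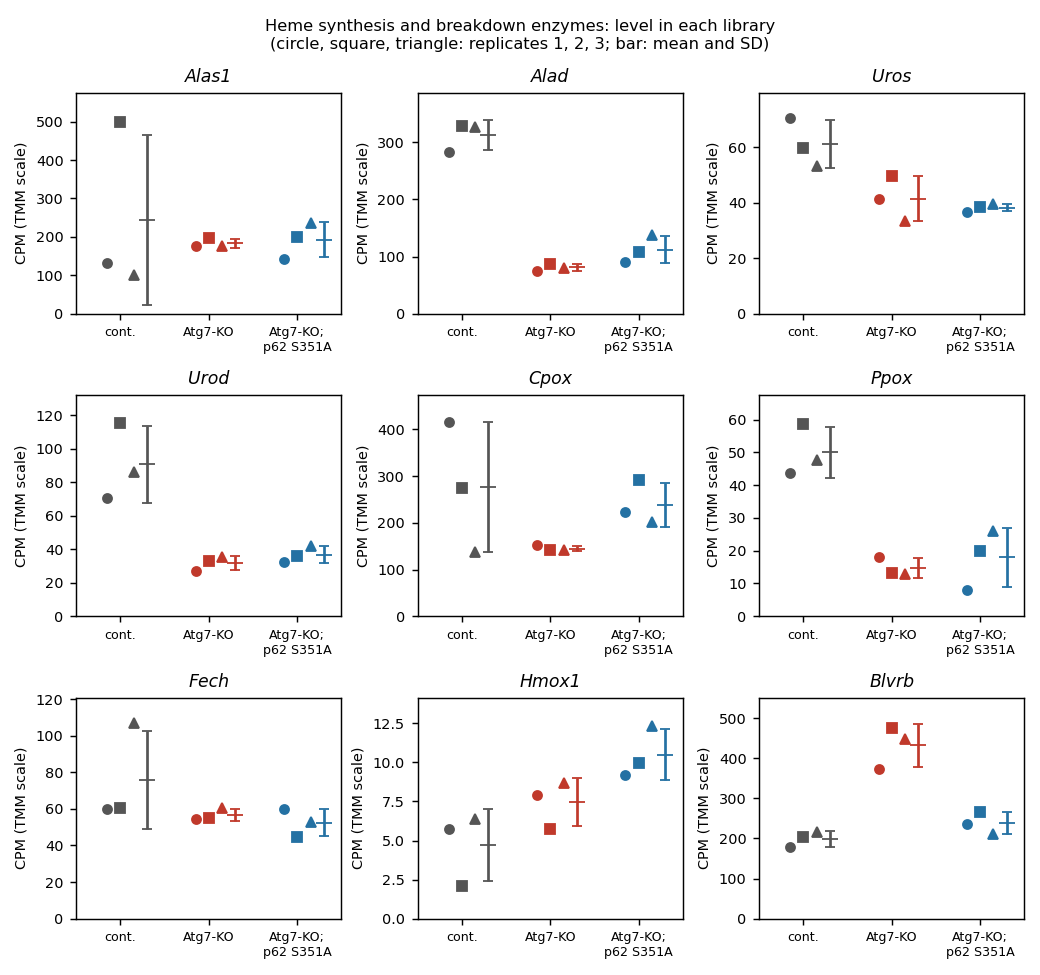
Level of each enzyme in each library, in CPM on the TMM scale, with a panel per gene and a vertical axis of its own from 0. Symbols are replicates 1, 2 and 3 and bars show mean and SD (n = 3). Alad, Urod and Ppox were lower in all 6 Cre libraries than in every cont. library, and the 3 Atg7-KO libraries had the highest Blvrb, at 373 to 476 CPM.

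The calls of Alad, Urod and Ppox held under every alternative that tested them, 20 for Alad, 20 for Urod and 19 for Ppox, in both comparisons with cont. Those of the next pair did not.

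Cpox (+ strand of chromosome 16 from 58670292 to 58717636 in mm10), which decarboxylates coproporphyrinogen, was at 416, 275 and 139 CPM in cont. and at 152, 143 and 141 in Atg7-KO. The cont. libraries spread widely, and the lowest of them lay below all Atg7-KO libraries. The log2 fold change of -0.93 (SE 0.33, adjusted p 0.0414) was called, but the call was lost in 13 of 20 alternatives. Leaving out cont. replicate 1 gave -0.52 (adjusted p 0.168), and leaving out cont. replicate 2, S351A replicate 1 or any of the Atg7-KO libraries gave adjusted p of 0.0509 to 0.11. In S351A, Cpox was at 223, 292 and 201 CPM, above each Atg7-KO library and within the range of cont. (log2 fold change -0.21, SE 0.33, adjusted p 0.679). Without cont. replicate 1 this difference was 0.19. Cpox shares 204 exonic bases with Gpr15, which had 0 CPM in all but 1 library.

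Uros (- strand of chromosome 7 from 133686243 to 133710072 in mm10), which closes the ring, was at 70.6, 59.9 and 53.1 CPM in cont., at 41.3, 49.5 and 33.4 in Atg7-KO, and at 36.8, 38.5 and 39.5 in S351A. The Cre libraries were all below cont., by a small margin. In Atg7-KO the log2 fold change was -0.55 (SE 0.20, adjusted p 0.0425), a 1.46-fold difference that is under the limit of 1.5. In S351A it was -0.67 (SE 0.21, adjusted p 0.035), called, and lost in 13 of 20 alternatives. The adjusted p was 0.0506 to 0.102 when cont. replicate 1 or 2, Atg7-KO replicate 1 or any S351A library was left out. In Atg7-KO it became a call without cont. replicate 3 (-0.65, adjusted p 0.0271) or without Atg7-KO replicate 2 (-0.70, adjusted p 0.0384).

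Alas1 (- strand of chromosome 9 from 106233455 to 106248654 in mm10) was at 133, 499 and 100 CPM in cont., at 175, 197 and 178 in Atg7-KO, and at 144, 200 and 236 in S351A. Cont. replicate 2 stood above all other libraries, and the other cont. libraries stood below all 6 Cre libraries. The log2 fold changes were -0.41 (SE 0.47, adjusted p 0.526) and -0.34 (SE 0.48, adjusted p 0.64). Without cont. replicate 2 they became 0.65 (adjusted p 0.0693) and 0.72 (adjusted p 0.0611), and scaling by library totals alone also turned both signs with that library kept (0.10 and 0.13). Cont. replicate 2 is the only female liver of its group, so that leaving it out sets male livers against Cre groups of 1 male and 2 females. The 95% interval of the Atg7-KO difference, -1.44 to 0.62, leaves room for a change in either direction. Alas1 was at 178 to 499 CPM in the 5 female libraries and at 100 to 175 in the 4 males, so the sexes were only just apart. How many of all genes part the sexes in this way was not counted. With sex as a covariate the differences from cont. were -0.42 (adjusted p 0.388) and -0.42 (adjusted p 0.421).

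Over the 9 libraries, the genes whose log2 CPM were most like Alas1 were Arrdc2, an arrestin-domain gene (Pearson r 0.977), Esr1, the estrogen receptor (0.95), and Cyp2a22, a cytochrome P450 (0.946). All 3 had their highest level in cont. replicate 2, at 349, 48.9 and 761 CPM. Of the 13 listed regulators, Foxo1 (r 0.888) and Nr1i2 (r 0.823) were most like Alas1 and also had their highest level there, at 312 and 301 CPM. The others had r of -0.357 (Bach1) to 0.628 (Ppargc1a), with Nr1i3 at 0.35. Arrdc2, Esr1 and Cyp2a22, like Alas1, were higher in each of the 5 female libraries than in each of the 4 male ones. For Esr1 the closest values were 15.6 and 15.3 CPM. The 3 genes were picked for their likeness to Alas1 in these same libraries, so a shared order by sex is no separate evidence. These are descriptions over libraries that share this high point and differ in sex, and the part of sex was not tested for these genes.

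Fech (- strand of chromosome 18), which inserts the iron, was at 59.8, 60.6 and 107 CPM in cont., at 54.5, 54.9 and 60.4 in Atg7-KO, and at 59.7, 44.7 and 53.1 in S351A. Apart from cont. replicate 3, the libraries lay within a narrow range. The log2 fold changes were -0.44 (SE 0.24, adjusted p 0.165) and -0.54 (SE 0.25, adjusted p 0.126), and without cont. replicate 3 they were -0.10 and -0.21.

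Blvrb (+ strand of chromosome 7 from 27447978 to 27466144 in mm10), a flavin reductase that also reduces biliverdin, was at 178, 203 and 216 CPM in cont., at 373, 476 and 448 in Atg7-KO, and at 237, 267 and 211 in S351A. The Atg7-KO libraries stood apart from both other groups, which overlapped. The log2 fold change of Atg7-KO against cont. was 1.12 (SE 0.21, adjusted p 0.00123), with the call kept in all 20 alternatives. That of S351A against cont. was 0.26 (SE 0.21, adjusted p 0.383). Scaled by library totals alone, it was 0.74 (adjusted p 0.0133) and called. The closest patterns to Blvrb were those of Rps2, a ribosomal protein gene (r 0.973), Aprt, an adenine salvage enzyme (0.968), and Rhod, a small GTPase (0.965).

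Hmox1 (+ strand of chromosome 8 from 75093621 to 75100589 in mm10) was at 5.72, 2.11 and 6.36 CPM in cont., at 7.89, 5.74 and 8.69 in Atg7-KO, and at 9.19, 9.93 and 12.3 in S351A. The S351A values rest on 8, 8 and 10 counts. They were all above the other groups, while Atg7-KO and cont. overlapped. The log2 fold change was 0.59 (SE 0.39, adjusted p 0.249) in Atg7-KO and 1.08 (SE 0.44, adjusted p 0.0848) in S351A. Scaling by library totals alone made both differences calls (1.17, adjusted p 0.027, and 1.61, adjusted p 0.015), and without cont. replicate 3 the S351A difference was called (1.53, adjusted p 0.0463). The patterns most like it were those of Mllt6 (r 0.93), Mier2 (0.926) and Ski (0.915).

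**Figure D2:**
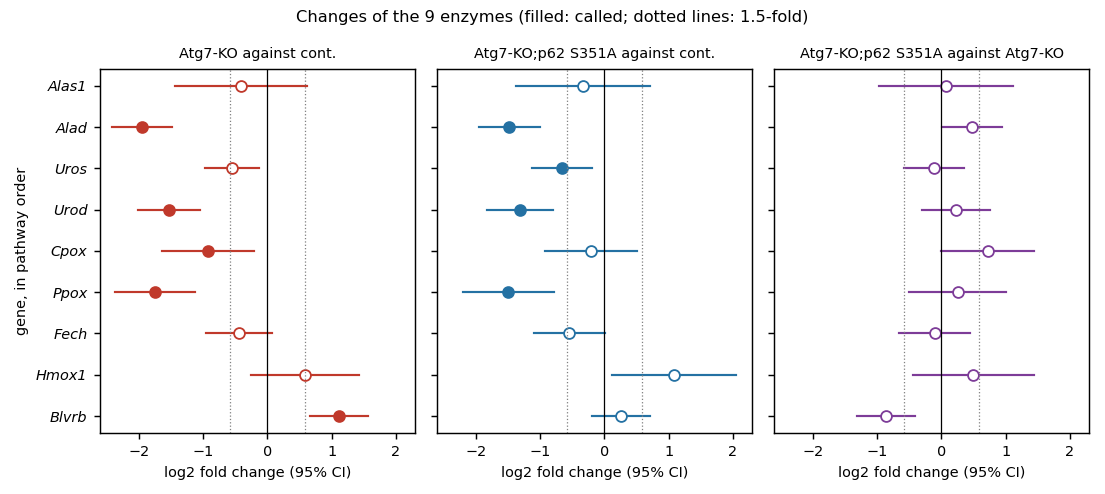
Log2 fold changes of the 9 enzymes with their 95% confidence intervals from edgeR, for 3 comparisons; filled points were called and dotted lines mark 1.5-fold. Alad, Urod and Ppox lie far left of 0 in both comparisons with cont., Blvrb lies right of 0 in Atg7-KO and near 0 in S351A, and the last panel has no filled point.

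The comparison of S351A with cont. asked how far these differences remain when p62 binds KEAP1 less tightly. It shares the cont. libraries with the first comparison, so the values of both stand side by side above without a test between them. Of the 7 synthesis enzymes, 4 were called lower (Alad, Uros, Urod and Ppox), against 13.0% of all genes tested, and no member was called higher, against 15.6%. Scaled by library totals alone, Blvrb and Hmox1 were called higher and Alad, Urod and Ppox lower, where 31.2% of all genes were higher and 4.57% lower. In 5 of the 9 genes every S351A library was below every cont. library, as in 18.4% of all genes, and in Hmox1 every library was above, as in 19.6%. The F test for any difference among the 3 groups passed the adjusted threshold for 5 of the 9 (Alad, Uros, Urod, Ppox and Blvrb), and for 35.1% of all genes.

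S351A and Atg7-KO livers differ by the p62 allele and also by depth, as given above. In this comparison none of the 9 genes was called in edgeR's test. Over all genes, 0 were called higher (0.0%) and 1 lower (0.00893%). At an unadjusted p under 0.05 the members were 2, Alad and Blvrb, against 6.6% of all genes. DESeq2 called Blvrb lower (log2 fold change -0.86, adjusted p 0.00336), against 0.0892% of the 19065 genes it was run on, and limma-voom called no gene. In edgeR, Blvrb differed by -0.86 (SE 0.21, 95% interval -1.31 to -0.41, adjusted p 0.364, lower in 3 of 3 libraries). Alad differed by 0.47 (SE 0.21, 95% interval 0.01 to 0.94, adjusted p 0.755, higher in 3 of 3 libraries). All S351A libraries were above Atg7-KO for 3 members (Alad, Cpox, Hmox1), as for 7.67% of all genes, and below for Blvrb, as for 9.23%. For Urod and Ppox the intervals of -0.31 to 0.75 and -0.50 to 1.01 hold both no difference and a 1.5-fold higher level in S351A.

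The ratio of Blvrb to Alad counts within a library does not depend on how libraries are scaled. It was 0.631, 0.618 and 0.664 in cont., 4.95, 5.46 and 5.60 in Atg7-KO, and 2.61, 2.47 and 1.53 in S351A. The groups did not overlap, and S351A lay between the others. This ratio was chosen after the values were seen and was not tested.

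Levels per length order the transcripts against each other. In cont., CPM per kilobase of exon was highest for Alad (167 ± 13.9, SD, n = 3), then Blvrb (71.6 ± 7.01), Cpox (41.5 ± 20.8), Alas1 (39.5 ± 35.9), Urod (35.0 ± 8.82), Uros (17.1 ± 2.46), Ppox (11.1 ± 1.72), Fech (5.47 ± 1.94) and Hmox1 (2.70 ± 1.31). Cpox, Alas1 and Urod overlapped each other and cannot be ordered, and Alas1, from 16.2 to 80.8, also reached the ranges of Blvrb and Uros. The libraries of all other neighbours in that order did not overlap, those of Blvrb and Cpox only just (64.0 and 62.5 at the closest). In Atg7-KO, Blvrb came first (156 ± 19.1) and Alad second (43.2 ± 3.18), and the lowest was Ppox (3.26 ± 0.65), with Fech (4.09 ± 0.24) and Hmox1 (4.25 ± 0.87) overlapping it. In S351A, Blvrb (85.6 ± 10.07) and Alad (60.0 ± 12.8) were again the highest, and their libraries were only just apart (75.9 and 73.9 at the closest). With the length of the longest transcript, Ppox and Fech changed places in cont., and Alad came after Alas1 and Cpox in Atg7-KO and after Cpox in S351A.

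**Figure D3:**
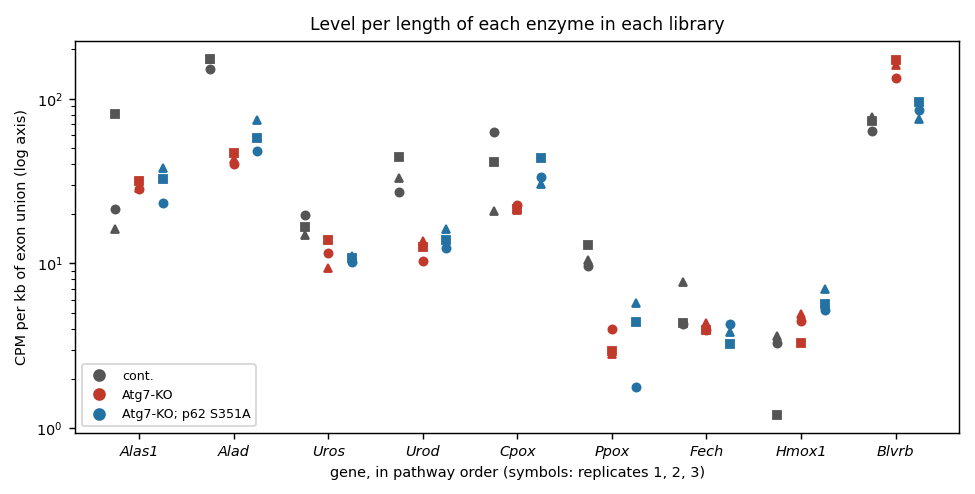
Level per length of each enzyme in each library, in CPM per kilobase of exon union on a log axis, in pathway order. Alad was the highest of the 9 in every cont. library and Blvrb in every Atg7-KO and S351A library, while Hmox1 was the lowest in each cont. library.

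Alas2 encodes the erythroid isoform of the first enzyme. It was at 191, 44.7 and 111 CPM in cont., at 13.5, 8.61 and 13.3 in Atg7-KO, and at 28.7, 17.4 and 22.2 in S351A. Every Cre library was below every cont. library, and Alas2 was called lower in Atg7-KO (log2 fold change -3.27, SE 0.44, adjusted p 1.50e-04) and in S351A (-2.32, SE 0.46, adjusted p 0.00309). It shares 311 exonic bases with Apex2, which was at 6.82 to 15.9 CPM.

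Of 10 listed markers of erythroid cells, 8 had a row and 3 were tested. Of these, Hba-a2 and Alas2 itself were called lower in both Cre groups, and Hbb-bs was not called (adjusted p 0.181 and 0.376). The summed level of the 8 markers was 328 to 905 CPM in cont., 94.8 to 205 in Atg7-KO and 153 to 222 in S351A. Hba-a2 took most of it and fell by 2.07 on the log2 scale in Atg7-KO (adjusted p 0.0022). Gata1, which defines erythroid precursors, was at 0 in 8 of 9 libraries and at 0.36 CPM in Atg7-KO replicate 2. Hba-a1, a near-identical copy of Hba-a2, was at 0 in all. Klf1, also listed but not tested, was at 6.09 to 6.99 CPM in cont., 0.46 to 1.08 in Atg7-KO and 1.15 to 2.48 in S351A. Its Cre values rest on 2, 3 and 2 counts in Atg7-KO and 1, 2 and 1 in S351A. Of the hepatocyte markers, 6 of 7 listed were tested and 5 were called lower in each Cre group, against 18.1% and 13.0% of all genes, with sums of 47020 to 103800 CPM in cont., 34040 to 40560 in Atg7-KO and 32460 to 44950 in S351A. By library totals alone, 3 of these 5 calls remained in Atg7-KO and 1 in S351A, where lower calls over all genes went down to 7.15% and 4.57%, and Apob was called higher in both. All 5 ductular markers were called higher in both, against 19.9% and 15.6% of all genes, from sums of 47.2 to 83.3 CPM in cont. to 719 to 1202 in the Cre groups. Of 9 macrophage markers tested, Adgre1, Cd68, Csf1r and Lyz2 were called higher in both Cre groups, against the same shares, and Timd4 lower in Atg7-KO, with sums of 221 to 340 CPM in cont. and 268 to 387 in the Cre groups. In cont. replicates 1, 2 and 3, Alad was at 282, 329 and 326 CPM. The erythroid sums there were 845, 905 and 328 CPM, and the hepatocyte sums 47020, 103800 and 99140 CPM. Among the other synthesis enzymes the order over these replicates varied. Cpox was at 416, 275 and 139 CPM, Uros at 70.6, 59.9 and 53.1, and Alas1 at 133, 499 and 100. Urod was at 70.6, 116 and 85.9 CPM, Ppox at 43.9, 58.8 and 47.6, and Fech at 59.8, 60.6 and 107. The part of these cell markers in the enzyme results was not tested.

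**Figure D4:**
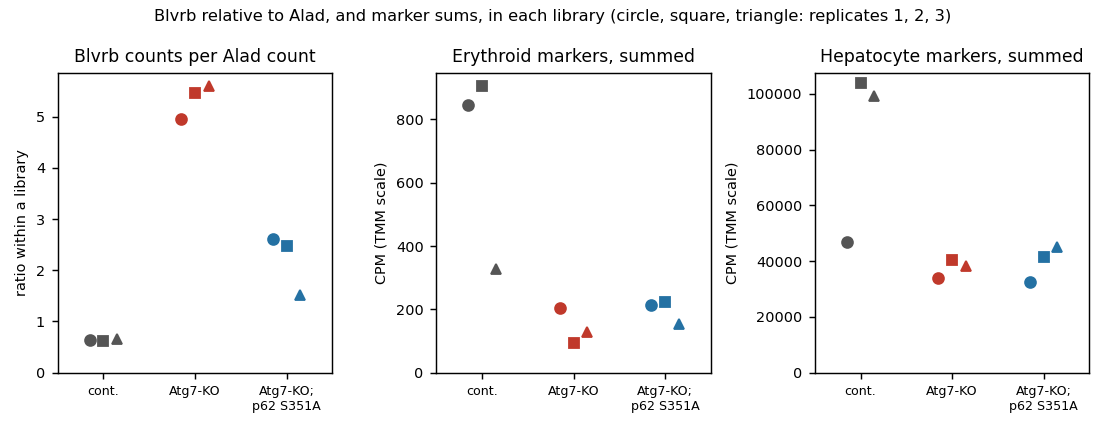
Ratio of Blvrb to Alad counts, and summed CPM of 8 erythroid and 6 hepatocyte markers, in each library; symbols are replicates 1, 2 and 3 and all axes start at 0. The ratio separates the 3 groups, and both marker sums are lower in all Cre libraries than in cont.

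Of 11 tested genes that carry heme, porphyrins or their precursors across membranes or bind them, 1 was called higher and 3 lower in Atg7-KO, against 19.9% and 18.1% of all genes, and also 1 higher and 3 lower in S351A, against 15.6% and 13.0%. Slc48a1, which exports heme from lysosomes to the cytosol, rose from 36.6 to 44.5 CPM in cont. to 224 to 275 in Atg7-KO and 117 to 201 in S351A (log2 fold changes 2.60 and 1.98, adjusted p 1.04e-05 and 1.43e-04). Slc25a38, the mitochondrial glycine carrier that feeds ALAS, was lower in both Cre groups (-1.27 and -1.00), as was Tmem14c, which helps bring protoporphyrinogen into the mitochondrial matrix (-0.84 and -0.85). Abcb10, a mitochondrial transporter, was called lower in Atg7-KO (-0.72, adjusted p 0.0445, lost in 16 of 20 alternatives), and Abcg2, which exports porphyrins, in S351A (-0.97, adjusted p 0.0466, lost in 13 of 20). By library totals alone, Tmem14c, Abcb10 and Abcg2 lost their calls, and so did Slc25a38 in S351A. The median over the 11 genes was -0.46 in Atg7-KO and -0.53 in S351A.

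Downstream of heme oxygenase, Blvra, the main adult biliverdin reductase, went against Blvrb. It was at 15.3 to 17.2 CPM in cont., 7.32 to 9.33 in Atg7-KO and 4.94 to 10.3 in S351A (log2 fold changes -0.93, adjusted p 0.0145, and -0.95, adjusted p 0.0432), with the S351A call lost in 15 of 18 alternatives and both lost by library totals alone. Slco1b2, a hepatocyte uptake carrier for bilirubin, was called lower (log2 fold changes -2.11 and -1.55). Ugt1a1, which conjugates bilirubin, was called higher in S351A (0.68, adjusted p 0.0406, lost in 9 of 20 alternatives), and by library totals alone also in Atg7-KO. Hmox2, the constitutive heme oxygenase, was at 5.72 to 24.6 CPM in cont. and was not called, and it shares 892 exonic bases with Cdip1 on the opposite strand. Abcc2 and Abcc3, export pumps, were not called. Of the 4 genes that clear free hemoglobin and heme, 2 were called lower in each Cre group, against 18.1% and 13.0% of all genes. The macrophage receptor Cd163 was called lower in both, from 13.4 to 16.9 CPM in cont. to 0.70 to 1.80 in Atg7-KO and 0 to 4.94 in S351A. Its Cre values rest on 3, 5 and 3 counts in Atg7-KO and 0, 0 and 4 in S351A, near the floor of 3 counts. The endocytic receptor Lrp1 was called lower in both (-1.38 and -1.11, the latter lost by library totals alone), and the plasma proteins haptoglobin (Hp) and hemopexin (Hpx) were not called, though Hpx was called higher in both by library totals alone.

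Of 11 proteins that use heme, 7 were called lower in Atg7-KO, against 18.1% of all genes, and 8 in S351A, against 13.0%, with medians of -0.86 and -1.07. Cyp2e1 (-3.39 and -2.42), Cyp3a11 (-3.20 and -2.59), sulfite oxidase Suox (-2.22 and -1.62), tryptophan dioxygenase Tdo2 (-1.32 and -1.38), cytochrome b5 Cyb5a (-1.18 and -1.52) and catalase Cat (-0.86 and -1.07) were called in both. Cyc1 was called in Atg7-KO (lost in 12 of 20 alternatives) and Cyb5b and Cycs in S351A (lost in 9 and 14 of 20). Cyp1a2 and Cyp7a1 were not called in either. By library totals alone, Cat, Cyc1 and Cyb5a lost their Atg7-KO calls, Cat, Cyb5b and Cycs lost their S351A calls, and Cyp1a2 was called higher in Atg7-KO.

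As a reference for NRF2, all 6 listed targets were called higher in Atg7-KO and 4 of 6 in S351A, against 19.9% and 15.6% of all genes, with medians of 2.96 and 2.02 beside -0.03 in both over all genes. Nqo1 rose from 8.51 to 21.5 CPM in cont. to 225 to 364 in Atg7-KO and 114 to 170 in S351A. Txnrd1 was called higher in both (1.46 and 0.71, the latter lost in 8 of 20 alternatives). Gclm was called in Atg7-KO (0.81, adjusted p 0.0163) and was close to cont. in S351A (0.05, adjusted p 0.898). In all 6, every S351A library was below every Atg7-KO library, as for 9.23% of all genes, and the unadjusted p was under 0.05, as for 6.6%, though none was called between those groups in edgeR's test.

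**Figure D5:**
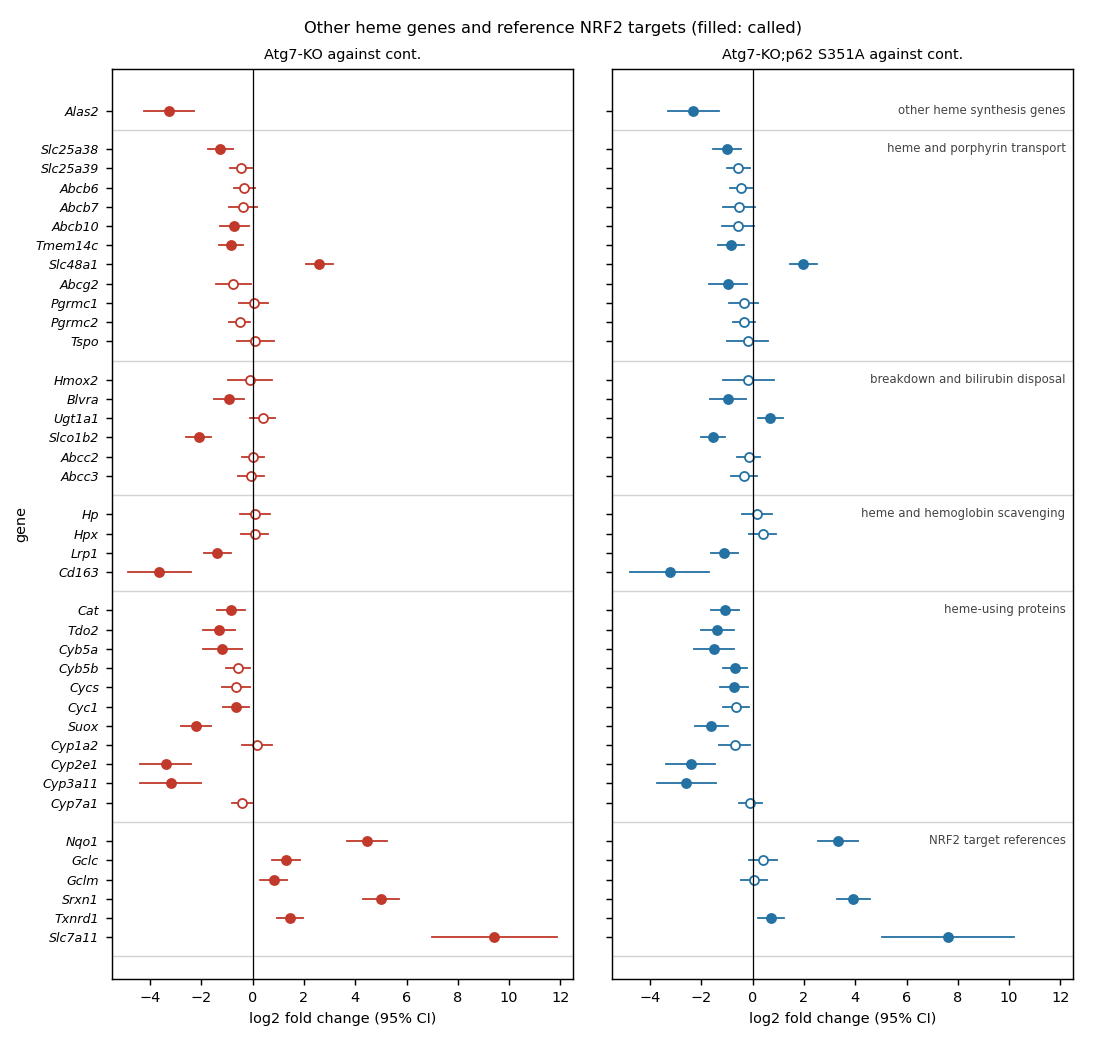
Log2 fold changes with 95% confidence intervals from edgeR for other heme genes and 6 NRF2 targets, against cont., in Atg7-KO (left) and S351A (right); filled points were called. Slc48a1 is the only heme transport gene right of 0 with a filled point in both panels, most heme-using proteins lie left of 0, and the 6 NRF2 targets lie right of it.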

How the data were processed

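Livers were grouped by their titles, 3 per genotype. The authors sequenced poly(A) RNA on an Illumina NextSeq and, per the submitters' processing notes, used Trim Galore, STAR with mm10, and RSEM. Their versions, the annotation and the strand setting are not given in the sources used here. The deposited table holds expected counts per gene symbol, that is RSEM's estimated counts without scaling between libraries. Between 4.40% and 7.75% of values per library were not whole, and all were rounded. No column of the table was left out, and the study's further genotypes were not used here. Of 24411 symbols, 23376 matched GENCODE M21, which gave positions and lengths.

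edgeR 4.0.16 in R 4.3.3 was run with filterByExpr (minimum count 10, minimum total 15), TMM scaling and 1 quasi-likelihood fit of all 9 libraries, with Benjamini-Hochberg adjustment over 11199 genes. SEs and 95% intervals are those implied by the F test. A count of 3 was taken as the floor of a library, at 0.269 to 3.73 CPM, and this and all intervals cover counting or sampling error only. Replicates differed by 2.29 to 119 times counting noise, so none was a copy. The fit was tested on simulated data. Correlations used log2 CPM with a prior count of 2. Alternatives were RLE factors, library totals alone, totals that leave out the 20 largest genes, other filters, DESeq2 1.42.0, limma-voom (limma 3.58.1), only 6 libraries, a replicate block, sex, thinning, adjusted p alone, and leaving out each library.

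Named genes were the 9 members in every comparison, heme genes called in any comparison, Alas2, Hmox2 and Blvra for their role, Atg7, 3 NRF2 targets, and for Alas1, Hmox1 and Blvrb the 3 genes with the highest correlation. Other named genes of these lists were chosen after their values were seen. The members, lists and tests were chosen with earlier results of these data known. Some genes are not reported here. Promoter sequences are RefSeq's (GRCm38.p6).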

Additional observations from a re-analysis of the deposited data

How the results depend on the processing

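The 9 enzymes were fitted under up to 20 alternatives in 3 comparisons, 531 values in all, of which 479 kept their direction and their side of the thresholds, 26 lost a call, 10 gained one and 16 changed sign. The 26 lost calls were those of Cpox in Atg7-KO and Uros in S351A. With at least 10 counts in every library, Ppox and Hmox1 were not tested and 3 members were called in Atg7-KO and 2 in S351A against cont., in place of 5 and 4. DESeq2 called 1 member, Blvrb, in S351A against Atg7-KO, in place of 0. Leaving out each library gave 4 to 6 calls in Atg7-KO, 3 to 5 in S351A and 0 between the Cre groups. Signs changed only for differences that were not called. With total library size, Alas1 was at 0.10 in Atg7-KO and 0.13 in S351A, Cpox at 0.23 in S351A and Fech at 0.12 in Atg7-KO. Without the 20 largest genes, the same values were 0.0084, 0.045, 0.16 and 0.0027. In limma-voom Alas1 was at 0.0013 in S351A, and with sex as a covariate at -0.0045 in S351A against Atg7-KO. When libraries were left out in turn, Alas1 ranged from -0.80 to 0.65 in Atg7-KO, from -0.73 to 0.72 in S351A and from -0.10 to 0.25 between the Cre groups, Cpox from -0.54 to 0.19 in S351A, and Uros from -0.25 to 0.022 and Ppox from -0.12 to 0.615 between the Cre groups. Total library size moved the median of all genes by 0.54 in Atg7-KO and 0.49 in S351A, so a direction near 0 is relative to TMM. The cause of these shifts was not tested. Of the 9 pairs of same-numbered livers, 5 had deviations that correlated above the limit of 0.1 (correlations of -0.04 to 0.31). Not all pairs passed it, so the numbers were not taken as pairs. The best correlate in another group had the same number in 13 of 18 cases, a hint from the data only, and livers numbered 1 were all male and those numbered 2 all female. With a replicate block, 5, 4 and 0 members were called, as without it. With the longest transcript, the rank by level per length changed for 2 members in cont. and 5 in each Cre group. In the S351A libraries, with 713841 to 792372 counts, Hmox1 and Ppox had the fewest counts of the 9 enzymes.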

Other observations

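Of 13 listed regulators of the heme enzymes, 3 were called lower in both Cre groups, where 18.1% of all genes in Atg7-KO and 13.0% in S351A were called lower. Nr1i3, a nuclear receptor that induces Alas1 and cytochromes P450, was at 152 to 429 CPM in cont., 46.2 to 71.1 in Atg7-KO and 72.4 to 132 in S351A (log2 fold changes -2.45 and -1.46, adjusted p 3.47e-04 and 0.0111 in edgeR's test). Nr1d1, a nuclear receptor that binds heme and belongs to the circadian clock, fell by 1.30 and 1.46 on the log2 scale, and Clpx, a mitochondrial chaperone of ALAS, by 1.53 and 1.14. With total library size, Nr1d1 lost its call in both groups and Nr1i3 and Clpx lost theirs in S351A. Maff, a small MAF partner of NRF2 and BACH1, was called higher in Atg7-KO (2.05, adjusted p 0.00361), and Mafk in S351A (0.67, adjusted p 0.0469, lost in 15 of 20 alternatives). Bach1, the heme-binding repressor of Hmox1, was at 39.4 to 47.6 CPM in cont., 34.1 to 40.3 in Atg7-KO and 23.4 to 36.0 in S351A and was not called. Nfe2l2, which encodes NRF2, was not called.

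Of 10 clock genes tested, Nr1d1 included, 5 were called lower in Atg7-KO, against 18.1% of all genes, and 4 in S351A, against 13.0%, and none higher. Tef, Hlf and Nr1d2 were called in both (-0.98, -1.28 and -1.14 in Atg7-KO), and Arntl in Atg7-KO. The Hlf call in S351A was lost in 13 of 20 alternatives and that of Arntl in 6 of 19. With total library size 1 call was left in each group, where 7.15% and 4.57% of all genes were called lower. The time of day of sampling is not given in the sources used here.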
